A study of Mus musculus with 6 samples.

Results

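A list of 205 genes was deposited for the livers of 6 aged mice, and 54 of them are described here: the genes with more RNA in livers of SIRT2-KOhep than of LoxP mice that passed a floor on their level, without a set of genes left out by name. A gene was taken when its mean over the 3 SIRT2-KOhep mice exceeded its mean over the 3 LoxP mice, its mean over all 6 mice reached 1 FPKM (fragments per kilobase of transcript scaled to library size, the deposited unit), and it had a mouse gene symbol. Of the 205 genes, 154 were higher on average in SIRT2-KOhep mice, 74 of these reached the floor of 1 FPKM, and 20 of the 74 were set aside by name, such as Saa1, S100a8, Hba-a1, Tfrc and Pdk4. The genes were chosen by their mean FPKM in the 2 genotypes, so the genotype difference is given for them as a description and without a test.

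LoxP mice carried the floxed Sirt2 alleles without Cre and served as controls, and SIRT2-KOhep mice carried the same floxed alleles with Cre under the albumin promoter, which acts in hepatocytes and leaves Sirt2 in the other cells of the liver. All 6 mice were on the C57BL/6 background and 18 months old, each gave 1 liver library, and their sex was not given for the sequenced animals. Mice are numbered 1 to 3 within each genotype as labelled, and values are written in that order. Sirt2 was 26.5, 28.6 and 25.8 FPKM in the LoxP mice against 7.21, 8.45 and 8.58 FPKM in the SIRT2-KOhep mice, and the labels thus matched the targeted gene in all 6 livers. None of the 16 hepatocyte markers looked for was among the 205 listed genes, so the hepatocyte content of the libraries could not be checked on them. In a whole liver, fewer cells of a type and less RNA per cell cannot be told apart.

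SIRT2 is a deacetylase that takes acetyl groups off tubulin, transcription factors and metabolic enzymes. Hepatocytes secrete most plasma proteins, store and detoxify metals, and carry the cytochrome P450s, sulfotransferases and organic anion transporters that clear drugs, steroids and bile acids. Interleukin-6, interleukin-1 and glucocorticoids raise the synthesis of acute-phase proteins and metallothioneins in hepatocytes.

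The 54 genes were higher in SIRT2-KOhep mice on average, but unevenly so among the 3 mice. On the log2(FPKM + 1) scale the median difference between group means was 0.96, from 0.41 for Pglyrp1 to 2.35 for Lcn2. Mean FPKM was at least 2 times as high in SIRT2-KOhep mice for 53 genes, counting Chil4, which was listed at 0 in every LoxP mouse, and the exception was Efna3 at 1.96 times. The same held for 148 of all 205 listed genes, for all 20 set aside by name and for 75 of the 80 higher genes below the floor. It is thus a trait of the deposited list, and nothing is read from it about the 54. Against the LoxP mean, the 3 SIRT2-KOhep mice had median differences of 0.61, 1.68 and 0.43 over the 54 genes. The LoxP mice themselves had medians of 0.02, 0.04 and -0.11.

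SIRT2-KOhep mouse 2 held the highest of the 6 values for 37 of the 54 genes, and the same was true of 52.7% of all 205 listed genes. It was at least 2-fold above every other mouse for 29 of the 54, against 40.0% of the listed genes. The highest SIRT2-KOhep value lay in mouse 1 for 11 genes and in mouse 3 for 6. Without mouse 2 the median difference was 0.58. With each library rescaled by its median ratio to the others over the listed genes, the median difference was 0.39, and mouse 2 was the highest SIRT2-KOhep mouse for 22 of the 54, against 38.0% of the listed genes. Since most listed genes were higher in SIRT2-KOhep mice on average, such rescaling can also take away part of the genotype difference. The spread was wider among SIRT2-KOhep than among LoxP mice for 49 of 54 genes, with a median highest-to-lowest fold of 4.11 against 1.61. Because the rule also takes a gene that is high in a single SIRT2-KOhep mouse, it favours a wide spread in that group. The share over all listed genes was not computed, and nothing is read from this count about the genotypes.

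**Figure D1:**
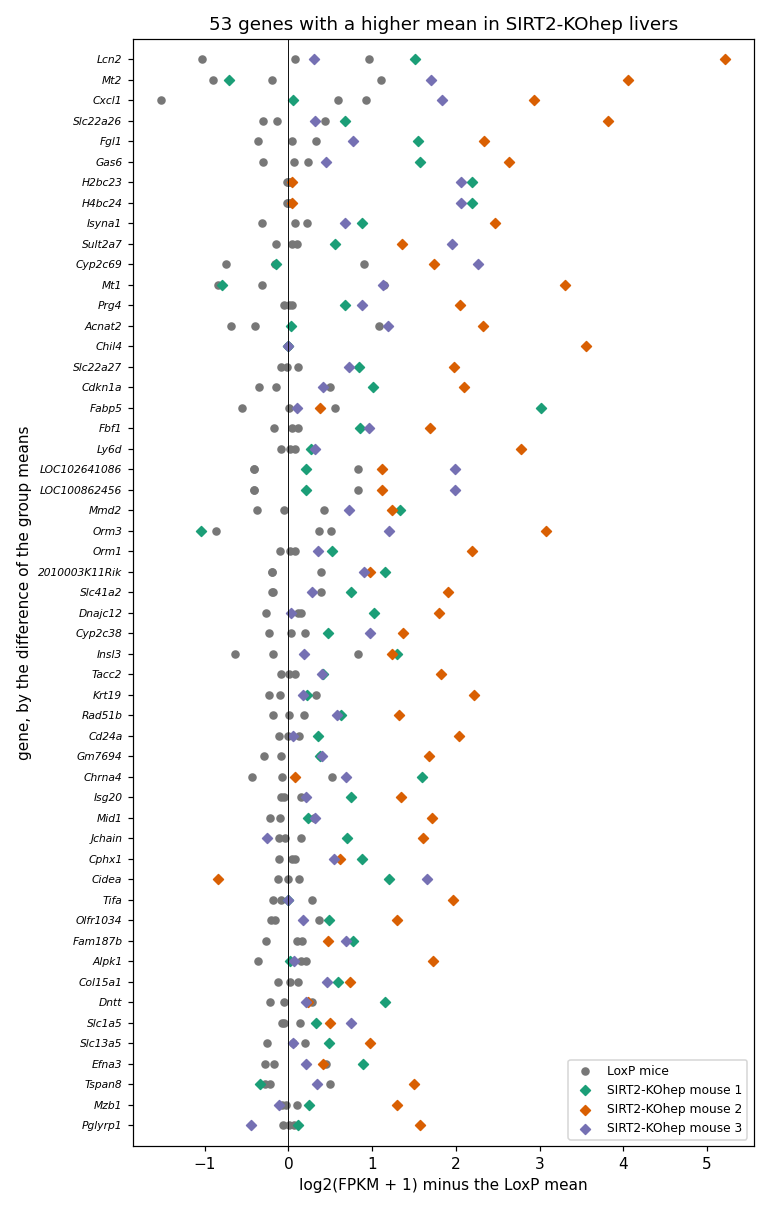
Difference of log2(FPKM + 1) from the LoxP mean (horizontal axis) for 53 of the 54 genes in rows, with grey circles for the 3 LoxP mice and coloured diamonds for the 3 SIRT2-KOhep mice. SIRT2-KOhep mouse 2 is the rightmost point of the 6 in most rows.

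The genotypes did not overlap for 21 of the 54 genes (38.9%), each SIRT2-KOhep mouse being above each LoxP mouse, against 23.4% of the 205 listed genes. After that rescaling the genotypes did not overlap for 8 of the 54, against 9.76% of the listed genes. Because the rule required a higher SIRT2-KOhep mean, nothing is read from the gap between these shares. Mice 1 and 2 alone were above all LoxP mice for 13 genes, mice 2 and 3 alone for 9, mice 1 and 3 alone for 2, mouse 2 alone for 6 and mouse 1 alone for 3. Counted by mouse, 39 genes were above all LoxP mice in mouse 1, 49 in mouse 2 and 32 in mouse 3, and the shares of all listed genes were 49.8%, 67.8% and 37.1%.

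**Figure D2:**
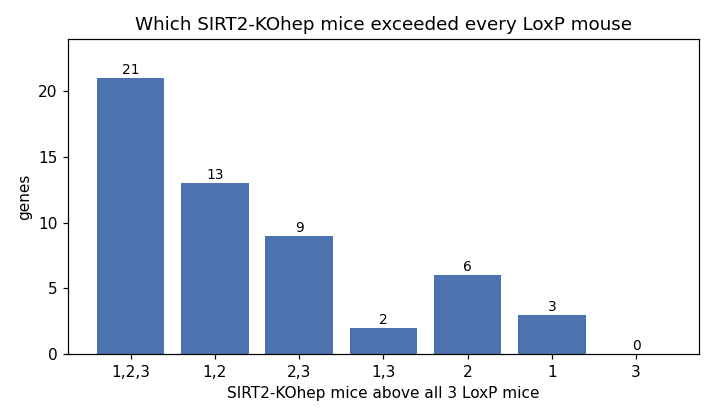
Number of the 54 genes (vertical axis) for each combination of SIRT2-KOhep mice that lay above all 3 LoxP mice (horizontal axis, by mouse number). The bar for all 3 mice stands at 21 genes and the bar for mice 1 and 2 at 13.

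Levels spanned more than 3 orders of magnitude. Averaged over the 6 mice, 5 genes reached 100 FPKM, 11 lay between 10 and 100, 5 between 5 and 10, 12 between 2 and 5, and 21 between 1 and 2. Summed over the 54 genes, the LoxP mice held 3029, 2172 and 2045 FPKM and the SIRT2-KOhep mice 3646, 15542 and 3784 FPKM. In SIRT2-KOhep mouse 2, 93.5% of that sum came from Orm1, Mt1, Mt2, Lcn2 and Fgl1. The sum therefore describes these 5 genes and little of the other 49.

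Orm1, a plasma protein made by hepatocytes, held the highest mean level of the 54 genes. Of 39 acute-phase and hepatic plasma proteins looked for besides those set aside by name (such as Saa1, Saa2, Lrg1, Orm2, Apcs and Serpina3n), 6 were listed and 5 were among the 54 genes (Lcn2, Orm3, Fgl1, Prg4 and Orm1), with a median difference of 1.20 on the log2(FPKM + 1) scale and groups that did not overlap for 3. The remaining listed gene of the 39 was Hamp, which encodes the iron hormone hepcidin and had a lower SIRT2-KOhep mean, with 224.6, 59.0 and 182 FPKM in the LoxP mice and 12.4, 3.03 and 136 FPKM in the SIRT2-KOhep mice.

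Orm1 (Gene ID 18405) encodes alpha-1-acid glycoprotein, an abundant acute-phase carrier of basic drugs in plasma. It was 1373, 1321 and 1220 FPKM in the LoxP mice and 1871, 5946 and 1661 FPKM in the SIRT2-KOhep mice, means of 1304 ± 77.6 and 3159 ± 2416 (SD, n = 3). The groups did not overlap, mice 1 and 3 were 1.43 and 1.27 times the LoxP mean, and mouse 2 was 4.56 times. Its neighbour Orm3 (Gene ID 18407), a second copy of the family 7.91 kb away on chromosome 4, was 30.4, 27.4 and 11.1 FPKM in the LoxP mice and 9.73, 185 and 49.9 FPKM in the SIRT2-KOhep mice. For Orm3 the groups overlapped, since SIRT2-KOhep mouse 1 was the lowest of the 6. Orm1 shared 20.4% of the 50-base windows of its transcripts with Orm2 and Orm3 shared 3.59%, so reads from these stretches could have been split between the copies by the authors' counting.

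Fgl1 (Gene ID 234199) encodes a fibrinogen-like protein that hepatocytes secrete and that binds the T-cell receptor LAG-3. It was 405, 331 and 250.4 FPKM in the LoxP mice (329 ± 77.4) and 949, 1640 and 551 FPKM in the SIRT2-KOhep mice (1047 ± 551). All 3 SIRT2-KOhep mice exceeded all LoxP mice, by 2.89, 4.99 and 1.67 times the LoxP mean. Prg4 (Gene ID 96875), which encodes the lubricating glycoprotein lubricin, had the narrowest LoxP range of this group at 15.1, 14.0 and 14.8 FPKM. Its SIRT2-KOhep values of 23.99, 63.9 and 27.9 FPKM lay apart from these, and the lowest of them was 1.58 times the highest LoxP value.

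Gas6 (Gene ID 14456) encodes a vitamin K-dependent ligand of the receptor kinases Tyro3, Axl and Mer. It was 15.3, 17.3 and 11.6 FPKM in the LoxP mice (14.7 ± 2.93) and 45.3, 95.5 and 20.2 FPKM in the SIRT2-KOhep mice (53.6 ± 38.3). The groups did not overlap, although mouse 3 was only 1.16 times the highest LoxP mouse. Lcn2 (Gene ID 16819) encodes lipocalin 2, which binds bacterial siderophores and is made both by hepatocytes and by neutrophils. Its values were 85.0, 45.7 and 20.6 FPKM in the LoxP mice and 125, 1649 and 53.8 FPKM in the SIRT2-KOhep mice. The difference of 2.35 was the widest of the 54 genes, but it fell to 0.91 without mouse 2, and mouse 3 lay inside the LoxP range.

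Cxcl1, a chemokine that draws neutrophils, was 23.7, 30.3 and 4.72 FPKM in the LoxP mice and 16.0, 125 and 57.4 FPKM in the SIRT2-KOhep mice. Mice 2 and 3 were above every LoxP mouse and mouse 1 was within their range. Of 33 genes of chemokines, the interferon response and antigen presentation looked for, Cxcl1 was the only one of the 3 listed that belonged to the 54, the others being Ccl21a and Cxcl13.

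ALPK1, a kinase that senses a sugar of Gram-negative bacteria, phosphorylates the adaptor TIFA and so switches on NF-kB. Tifa was 15.1, 19.6 and 13.9 FPKM in the LoxP mice and 16.0, 65.5 and 16.0 FPKM in the SIRT2-KOhep mice. Alpk1 was 1.77, 1.66 and 0.87 FPKM in the LoxP mice and 1.43, 6.92 and 1.52 FPKM in the SIRT2-KOhep mice. The genes lie 8.33 kb apart on chromosome 3, from 127666718 to 127780547 and from 127788875 to 127798394 (GRCm38), and both were high in mouse 2 alone. Isg20, an interferon-induced exonuclease that degrades RNA, had groups that did not overlap, with LoxP values of 2.54, 1.99 and 2.07 FPKM and SIRT2-KOhep values of 4.37, 7.11 and 2.69 FPKM. Pglyrp1, a peptidoglycan-binding protein of neutrophil granules, had the smallest difference of the 54 genes at 0.41, with 4.73 FPKM in mouse 2 and 0.42 to 1.09 FPKM in the other 5 mice.

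Lcn2 and Pglyrp1 were highest of the 6 mice in SIRT2-KOhep mouse 2, and so were the neutrophil genes S100a8, S100a9, Prtn3 and Ngp, which were set aside by name. The same was true of 52.7% of all listed genes, so it does not mark these genes out. In SIRT2-KOhep mouse 1, Prtn3, Ngp and S100a8 were also above every LoxP mouse, and S100a9 was not. Of 19 neutrophil markers looked for beyond the genes set aside, Lcn2 alone was listed. Among those set aside, S100a9 was 7.85, 6.24 and 2.83 FPKM in the LoxP mice and 7.36, 23.5 and 5.78 FPKM in the SIRT2-KOhep mice. Prtn3 was 2.83, 2.78 and 0.34 FPKM in the LoxP mice and 36.75, 72.6 and 2.48 FPKM in the SIRT2-KOhep mice. The part of neutrophils in the values of Lcn2, Pglyrp1 and Cxcl1 was not tested.

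The letters before the start of Cxcl1 are shown because the NF-kB motif GGGANNNNCC was searched there on both strands. The window holds the 250 bases before the RefSeq transcript start (GRCm38.p6, plus strand, chr5:90890995-90891244), with matches in capitals. The motif was found in 17.6% of all 32851 RefSeq promoter windows of this length and in 10 of the 39 members that have a window. The first share counts windows and the second counts genes with a match in any of their windows, so they are not compared.
Cxcl1: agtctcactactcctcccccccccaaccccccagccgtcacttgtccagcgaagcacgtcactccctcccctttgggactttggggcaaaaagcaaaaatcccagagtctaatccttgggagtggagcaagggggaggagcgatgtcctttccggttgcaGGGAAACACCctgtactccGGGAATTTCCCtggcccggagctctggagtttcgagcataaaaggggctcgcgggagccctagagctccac
Matches began 90, 71 and 70 bases before the start, and the last pair overlap. A match describes letters and does not show that a factor was bound.

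The metallothionein genes Mt1 and Mt2, whose small cysteine-rich proteins bind zinc and copper, were 2 of the 5 genes with the highest levels. They lie 5.32 kb apart on chromosome 8 (Mt2 from 94172618 to 94173567 and Mt1 from 94178883 to 94180327). Mt1 was 629, 158 and 229 FPKM in the LoxP mice and 163, 2809 and 622 FPKM in the SIRT2-KOhep mice. Mt2 was 320.2, 78.9 and 129 FPKM in the LoxP mice and 90.2, 2482 and 487 FPKM in the SIRT2-KOhep mice. SIRT2-KOhep mouse 2 was the highest of the 6 for both genes and LoxP mouse 2 the lowest. SIRT2-KOhep mouse 1 lay at 0.48 and 0.512 times the LoxP mean, and mouse 3 at 1.84 and 2.77 times.

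LoxP mouse 1 was the highest of its group for both, and SIRT2-KOhep mouse 3 exceeded it for Mt2 but not for Mt1. The ratio of Mt1 to Mt2 was 1.96, 2.01 and 1.77 in the LoxP mice and 1.80, 1.13 and 1.28 in the SIRT2-KOhep mice. Of 27 genes of metal, oxidative and glucocorticoid responses looked for, Mt1 and Mt2 were the ones listed, so the other 25 could not be described.

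The window before the RefSeq start of Mt2 (GRCm38.p6, plus strand, chr8:94172368-94172617) is shown with the core letters of the metal response element, TGCNCNC, in capitals where they were found on either strand. These letters were found in 44.4% of all RefSeq windows and in 21 of the 39 members with a window, so a match in a window is common. Here too the first share counts windows and the second counts genes with a match in any window.
Mt2: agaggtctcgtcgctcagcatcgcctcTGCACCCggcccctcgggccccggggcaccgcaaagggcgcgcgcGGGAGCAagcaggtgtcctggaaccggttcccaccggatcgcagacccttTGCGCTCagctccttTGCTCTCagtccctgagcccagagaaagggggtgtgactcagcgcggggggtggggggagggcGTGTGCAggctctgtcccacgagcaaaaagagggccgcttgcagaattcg
The window held 5 matches, which began 223, 178, 128, 113 and 50 bases before the start. Several transcript starts are annotated for Mt1, and no window is shown for it.

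Enzymes and carriers of drugs, steroids and lipids were high in different mice. The list of drug and steroid metabolism held 39 entries, many of which stood for every gene name with a given beginning. Of the genes it covered, 11 were listed and 3 belonged to the 54, with a median difference of 1.28 and groups that did not overlap for 2. Of the other 8 listed, 6 had a higher SIRT2-KOhep mean and 2 a lower one, and the latter were Hsd3b5, with means of 101 FPKM in LoxP and 44.6 FPKM in SIRT2-KOhep mice, and Cyp7a1, with means of 37.6 and 10.95 FPKM. Summed over the 11 listed genes, the LoxP mice held 157, 172 and 147 FPKM and the SIRT2-KOhep mice 129, 64.8 and 121 FPKM. Cyp2c38, a cytochrome P450 of the 2C family, was 12.9, 10.5 and 14.6 FPKM in the LoxP mice (12.6 ± 2.04) and 17.9, 34.1 and 25.7 FPKM in the SIRT2-KOhep mice (25.9 ± 8.10). Sult2a7, a sulfotransferase of the family that sulfates steroids and bile acids, was 1.84, 1.72 and 1.38 FPKM in the LoxP mice (1.65 ± 0.239) and 2.88, 5.75 and 9.20 FPKM in the SIRT2-KOhep mice (5.94 ± 3.16). Neither gene showed overlap between genotypes.

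For Cyp2c69 the groups overlapped, with 3.42, 1.95 and 8.20 FPKM in the LoxP mice and 3.44, 15.4 and 22.7 FPKM in the SIRT2-KOhep mice. Sult2a7 and Cyp2c69 were highest in mouse 3 rather than mouse 2. Cyp2c38 and Cyp2c69 lie 380 kb apart on chromosome 19, and 54.3% of the 50-base windows of Cyp2c69 also occurred in other genes, mostly Cyp2c40. The counts behind Cyp2c69 are therefore uncertain where reads match several genes.

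Fabp5 (Gene ID 16592), a carrier of fatty acids inside cells, was high in mouse 1 alone. It was 16.9, 25.2 and 11.1 FPKM in the LoxP mice and 144, 22.3 and 18.1 FPKM in the SIRT2-KOhep mice. Mouse 1 was 8.10 times the LoxP mean, and mice 2 and 3 lay within the LoxP range. Cidea, a lipid droplet protein that enlarges droplets, was 1.55, 1.80 and 1.34 FPKM in the LoxP mice and 4.87, 0.43 and 7.07 FPKM in the SIRT2-KOhep mice. Mice 1 and 3 were 3.12 and 4.52 times the LoxP mean and mouse 2 was the lowest of the 6. Fabp5 and Cidea were the only 2 listed genes that matched the 52 entries for lipid handling and PPAR targets, where the Fabp entry stood for the whole family.

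Acnat2, an enzyme that joins amino acids to fatty acids, was 12.9, 10.4 and 37.9 FPKM in the LoxP mice and 17.7, 90.8 and 40.9 FPKM in the SIRT2-KOhep mice. LoxP mouse 3 and SIRT2-KOhep mouse 3 held similar levels, and 30% of the windows of Acnat2 occurred in Acnat1. Isyna1, which makes inositol phosphate from glucose phosphate, had groups that did not overlap, with 4.79, 3.41 and 5.40 FPKM in the LoxP mice and 9.09, 29.2 and 7.77 FPKM in the SIRT2-KOhep mice.

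**Figure D3:**
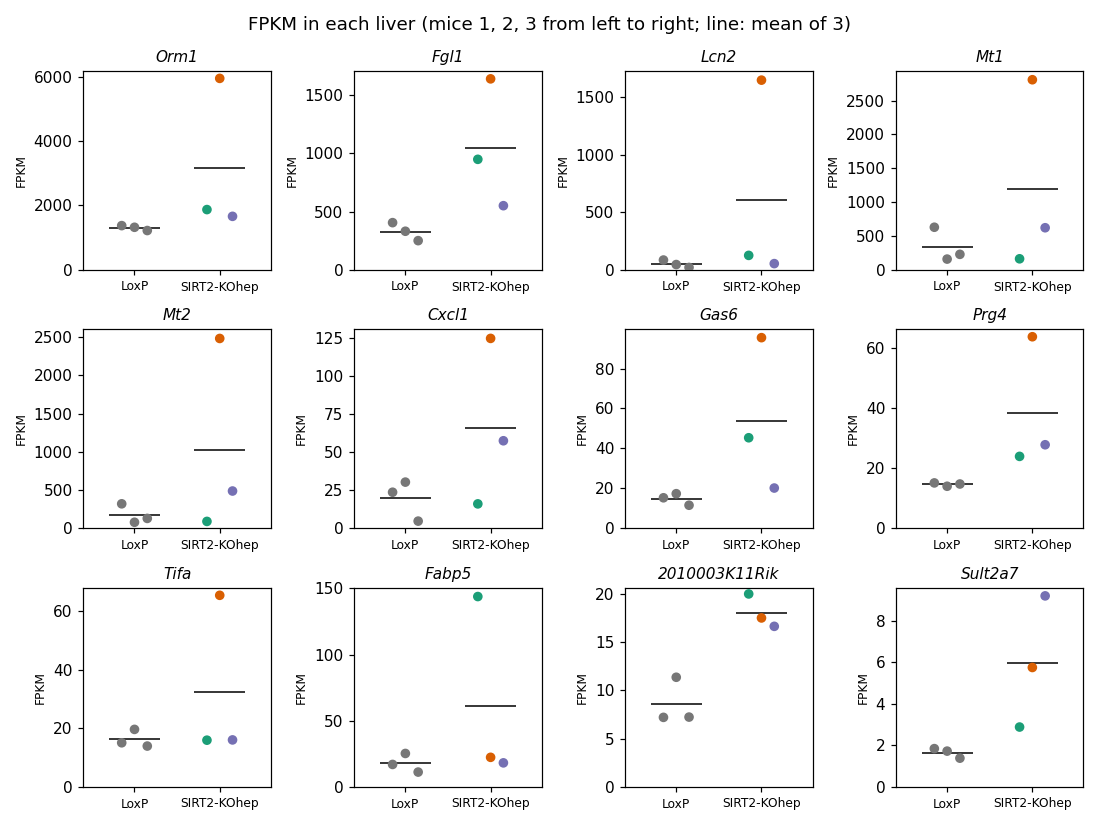
FPKM of 12 genes in each liver on linear axes that start at 0, with each point 1 mouse, mice 1, 2 and 3 from left to right within a genotype, and a line at the mean of the 3. Orm1, Fgl1, Gas6, Prg4, 2010003K11Rik and Sult2a7 show no overlap between genotypes, and Fabp5 is high in SIRT2-KOhep mouse 1 alone.

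Of the 9 listed solute carriers, 5 were among the 54 genes, with a median difference of 0.98 and groups that did not overlap for 2. Of the other 4, 3 had a higher SIRT2-KOhep mean and 1, Slc13a2, a lower one. Slc22a26 and Slc22a27, members of the organic anion transporter family, lie 61.7 kb apart on chromosome 19. Slc22a26 was 1.13, 0.44 and 0.28 FPKM in the LoxP mice and 1.53, 21.3 and 0.96 FPKM in the SIRT2-KOhep mice, and mouse 2 was 13.9 times the next highest mouse. Slc22a27 was 0.54, 0.41 and 0.34 FPKM in the LoxP mice (0.43 ± 0.101) and 1.56, 4.62 and 1.36 FPKM in the SIRT2-KOhep mice (2.51 ± 1.83). Its lowest SIRT2-KOhep value was 2.52 times the highest LoxP value, and 29.9% of its windows occurred in other genes.

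Slc1a5, a carrier of glutamine and other neutral amino acids, was 0.63, 0.89 and 0.66 FPKM in the LoxP mice and 1.17, 1.44 and 1.89 FPKM in the SIRT2-KOhep mice, without overlap. Slc41a2, a magnesium transporter, was 6.34, 9.98 and 6.37 FPKM in the LoxP mice and 13.1, 30.5 and 9.19 FPKM in the SIRT2-KOhep mice. Slc13a5, which imports citrate, was 0.73, 0.92 and 0.40 FPKM in the LoxP mice and 1.34, 2.28 and 0.74 FPKM in the SIRT2-KOhep mice. In both, mice 1 and 2 were above all LoxP mice and mouse 3 was not.

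Some genes were higher to a similar extent in each SIRT2-KOhep mouse in the deposited FPKM. Of the 21 genes without overlap, 8 had SIRT2-KOhep mice within 2-fold of each other: Cyp2c38, 2010003K11Rik, Mmd2, Fbf1, Col15a1, Cphx1, Slc1a5 and Fam187b. The share of all listed genes that did so was not computed, and nothing is read from this count. The evenness of these 8 depends on the scaling. With each library rescaled by its median ratio to the others, the differences of these 8 fell to between 0.16 for Col15a1 and 0.59 for Fbf1. That of 2010003K11Rik went from 1.01 to 0.31, and its SIRT2-KOhep mouse 2 then fell below every other mouse. Of these genes, only Fbf1 still had genotypes without overlap after the rescaling. The gene 2010003K11Rik (Gene ID 69861), whose function is not well known, was 7.20, 11.4 and 7.23 FPKM in the LoxP mice (8.60 ± 2.39) and 20.0, 17.5 and 16.6 FPKM in the SIRT2-KOhep mice (18.1 ± 1.74). It was the only gene of the 54 whose SD of the deposited FPKM was no larger among SIRT2-KOhep than among LoxP mice. Mmd2, a Golgi membrane protein, was 3.40, 2.17 and 1.54 FPKM in the LoxP mice and 7.26, 6.77 and 4.43 FPKM in the SIRT2-KOhep mice. Fbf1, a component of the distal appendages by which centrioles dock for cilium formation, was 1.90, 2.05 and 1.50 FPKM in the LoxP mice and 4.06, 8.05 and 4.45 FPKM in the SIRT2-KOhep mice.

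Col15a1, a collagen of basement membranes, was 0.83, 1.17 and 1.02 FPKM in the LoxP mice and 2.01, 2.33 and 1.76 FPKM in the SIRT2-KOhep mice. Cphx1, a homeobox gene, was 0.77, 0.81 and 0.59 FPKM in the LoxP mice and 2.16, 1.63 and 1.51 FPKM in the SIRT2-KOhep mice, and 79.5% of its windows also occurred in its copy Cphx2. Fam187b, a membrane protein, was 0.31, 0.77 and 0.69 FPKM in the LoxP mice and 1.69, 1.19 and 1.54 FPKM in the SIRT2-KOhep mice. These 3 genes lay near the floor of 1 FPKM, and the number of reads behind such values is unknown because the file gives no counts.

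**Figure D4:**
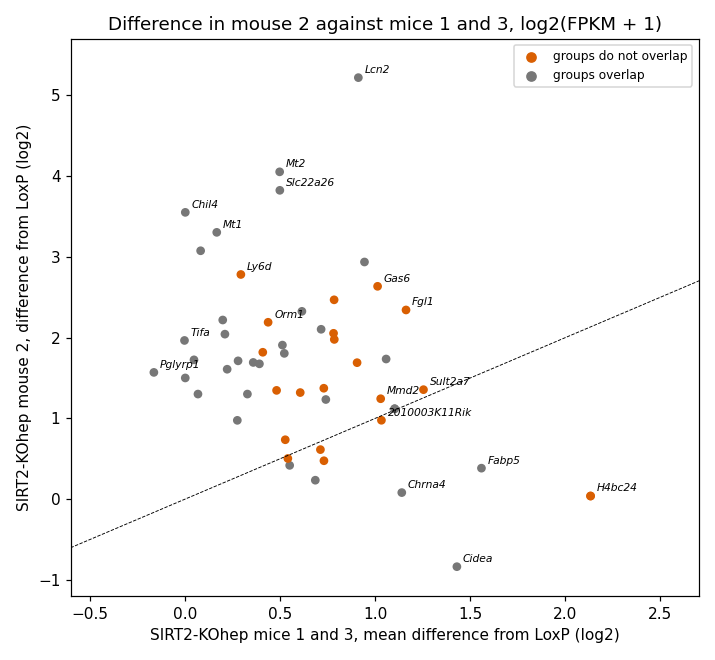
Difference of log2(FPKM + 1) from the LoxP mean in SIRT2-KOhep mouse 2 against the mean difference of mice 1 and 3, with each point 1 of the 54 genes, orange where the genotypes do not overlap, and a dashed line at equal differences. Lcn2, Mt2 and Slc22a26 lie highest, and H4bc24 (on which H2bc23 falls), Fabp5 and Cidea lie to the right and below the line.

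Genes of the cell cycle, DNA and the cytoskeleton were scattered in pattern. Cdkn1a encodes p21, an inhibitor of cyclin-dependent kinases, and was the only listed gene of 25 of the cell cycle looked for. It was 1.22, 0.93 and 2.45 FPKM in the LoxP mice and 3.96, 9.54 and 2.27 FPKM in the SIRT2-KOhep mice, and mouse 3 lay within the LoxP range. Rad51b, a recombination repair protein, was 0.83, 0.41 and 0.61 FPKM in the LoxP mice and 1.49, 3.01 and 1.40 FPKM in the SIRT2-KOhep mice, without overlap. Tacc2, a protein of centrosomes and microtubules, was 5.46, 5.83 and 5.09 FPKM in the LoxP mice (5.46 ± 0.370) and 7.60, 21.8 and 7.52 FPKM in the SIRT2-KOhep mice (12.3 ± 8.19), also without overlap. Mid1, a ubiquitin ligase bound to microtubules, was 2.77 to 4.43 FPKM in the LoxP mice and 4.15, 13.3 and 4.47 FPKM in the SIRT2-KOhep mice. Dntt, the template-independent DNA polymerase of developing lymphocytes, reached 2.57 FPKM in SIRT2-KOhep mouse 1 and 0.37 to 0.94 FPKM in the other 5 mice.

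The histone genes H4bc24 and H2bc23 had the same value in every mouse: 0.02, 0.04 and 0.01 FPKM in the LoxP mice and 3.69, 0.05 and 3.29 FPKM in the SIRT2-KOhep mice. Mice 1 and 3 were high, and mouse 2 stood 0.01 FPKM above the highest LoxP mouse, which is the rounding step of the file. The separation of the groups for these genes therefore rests on that step. No fold is given against values so close to 0. RefSeq lists older names for both that belong to H2B genes, and in the GENCODE transcripts 88.7% and 97.3% of their 50-base windows occurred in another gene, chiefly each other. The pair lies 23.5 kb apart on chromosome 13, and the 2 rows cannot be counted as separate genes.

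The bases before both histone genes are shown because they were identical in 250 of 250 positions (GRCm38.p6, H4bc24 on the plus strand at chr13:21833493-21833742 and H2bc23 on the minus strand at chr13:21810200-21810449). The CCAAT box, a common promoter element, was searched on both strands and is in capitals, and it was found in 33.8% of all RefSeq windows.
H4bc24: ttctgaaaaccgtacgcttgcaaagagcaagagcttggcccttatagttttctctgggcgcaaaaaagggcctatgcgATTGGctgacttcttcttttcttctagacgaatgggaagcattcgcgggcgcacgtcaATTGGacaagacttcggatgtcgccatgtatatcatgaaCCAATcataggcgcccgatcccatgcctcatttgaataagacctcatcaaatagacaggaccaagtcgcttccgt
Matches began 172, 114 and 75 bases before the start in each.

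Several genes are known from cell types other than hepatocytes. Jchain, which links antibodies into polymers, was 4.42, 3.77 and 3.52 FPKM in the LoxP mice and 6.95, 13.9 and 3.08 FPKM in the SIRT2-KOhep mice. Mzb1, a chaperone for antibody assembly, was 0.60, 0.80 and 0.65 FPKM in the LoxP mice and 1.00, 3.14 and 0.55 FPKM in the SIRT2-KOhep mice. Both were lowest of the 6 mice in SIRT2-KOhep mouse 3 and highest in mouse 2. Of 23 plasma and B cell markers looked for, 3 were listed (Jchain, Mzb1 and Pou2af1), and their summed level was 4.43 to 5.19 FPKM in the LoxP mice and 8.18, 18.3 and 3.76 FPKM in the SIRT2-KOhep mice. The part of plasma cell number in these values was not tested, and 53.5% of the windows of Mzb1 occurred in an overlapping gene model.

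Krt19, the keratin of bile duct cells, was 0.43, 0.93 and 0.30 FPKM in the LoxP mice and 0.78, 6.12 and 0.73 FPKM in the SIRT2-KOhep mice. It and Muc1 were the 2 listed of 9 cholangiocyte markers, and their sum was 0.42 to 1.38 FPKM in the LoxP mice and 0.98, 9.13 and 1.10 FPKM in the SIRT2-KOhep mice. Cd24a and Tspan8, surface proteins of epithelial and immature cells, followed the same mouse, at 9.37 and 4.10 FPKM in mouse 2 against at most 2.23 and 1.54 FPKM in the other 5 mice. The part of duct cells in these values was not tested.

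Chil4, a chitinase-like protein of mucosal and myeloid cells, was listed at 0 in all mice except SIRT2-KOhep mouse 2, where it was 10.7 FPKM, so its place among the 54 genes rests on that mouse. Ly6d, a surface protein of squamous epithelium and early B cells, was 1.00, 1.25 and 1.15 FPKM in the LoxP mice and 1.56, 13.7 and 1.66 FPKM in the SIRT2-KOhep mice. It had groups that did not overlap, by a lowest SIRT2-KOhep value 1.25 times the highest LoxP value. Of 23 mucosal epithelium markers looked for besides Dmbt1, Reg1 and Tff2, which were set aside by name, 4 were listed (Chil4, Ly6d, Olfm4 and Spink4), with a sum of 1.00 to 1.25 FPKM in the LoxP mice and 1.58, 28.6 and 1.66 FPKM in the SIRT2-KOhep mice. The part of such cells was not tested.

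No T and NK cell, macrophage or endothelial marker that was looked for was among the 205 listed genes. The single listed stellate cell marker, Acta2, fell just under the floor.

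Dnajc12, a co-chaperone of the hydroxylases of aromatic amino acids, was 4.82, 6.59 and 6.79 FPKM in the LoxP mice and 13.2, 23.5 and 6.13 FPKM in the SIRT2-KOhep mice. Chrna4, a subunit of the nicotinic acetylcholine receptor, was above every LoxP mouse in mice 1 and 3, at 4.56 and 1.97 FPKM, and reached 0.95 FPKM in mouse 2. Efna3, a ligand of Eph receptors, was highest in mouse 1 at 2.17 FPKM against 0.41 to 1.34 FPKM in the LoxP mice. Insl3, a relaxin-like hormone of Leydig cells, was 2.84 and 2.67 FPKM in mice 1 and 2 and at most 1.78 FPKM elsewhere, with 61.8% of its windows inside the overlapping gene Jak3. The value listed for Insl3 may thus hold reads of Jak3.

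The genes with the least known functions were Gm7694, Olfr1034 and the pair LOC102641086 and LOC100862456. Gm7694 was 4.26, 2.80 and 2.31 FPKM in the LoxP mice and 4.24, 11.9 and 4.36 FPKM in the SIRT2-KOhep mice. Olfr1034, named as an olfactory receptor, was 0.88 to 1.78 FPKM in the LoxP mice and 2.02, 4.33 and 1.44 FPKM in the SIRT2-KOhep mice. Both LOC genes overlap on chromosome 17 and held identical values in every mouse, 0 to 1.36 FPKM in the LoxP mice and 0.54, 1.89 and 4.30 FPKM in the SIRT2-KOhep mice. With the histone pair, this leaves 52 distinct profiles among the 54 genes.

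The 54 genes lay on 18 chromosomes, with 6 each on chromosomes 7, 8 and 19. The 7 pairs of neighbours named here were Mt1 with Mt2, Orm1 with Orm3, Alpk1 with Tifa, H4bc24 with H2bc23, Slc22a26 with Slc22a27, Cyp2c38 with Cyp2c69 and the LOC genes. Of 52 genes with GENCODE transcripts, 28 shared no 50-base window with another gene and 12 shared at least 10% of their windows.

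At the floor of 1 FPKM, the genes just inside by mean over the 6 mice were Dntt (1.03), Fam187b (1.03), Slc13a5 (1.07) and Slc1a5 (1.11). The genes just outside were Acta2 (0.907), Nos1ap (0.888), Psma8 (0.840) and Ntf3 (0.835). A gap between 0.907 and 1.03 FPKM separates the groups, and 80 genes with a higher SIRT2-KOhep mean lay below the floor.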

How the data were processed

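Total liver RNA of 6 mice was sequenced on the DNBSEQ platform, 1 library per mouse, after mRNA enrichment or removal of ribosomal RNA; which was used for each library, the aligner, the counting and the way the 205 genes were selected are not given in the sources used here. The labels name mouse genome mm10. The authors deposited FPKM with 2 decimals for the selected genes, normalized over whole libraries whose totals and counts are unknown, so no counting interval was computed. The age of the mice was taken from the study's text.

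Genes were matched to symbols and GRCm38 positions through RefSeq and GENCODE M21. The genes and the gene lists were chosen with earlier results of these data known. Differences were computed on log2(FPKM + 1), which understates the change of low genes, and groups were said not to overlap where all 3 SIRT2-KOhep values exceeded all 3 LoxP values. Values in every mouse were given for genes without overlap, the 5 with the highest mean, the 5 with the largest difference, genes of a list with at least 2 members, and others by range. The values of 1 member, which is counted in the totals, are not reported here. limma 3.58.1 (R 4.3.3, Benjamini-Hochberg over all 205 genes) was run on the whole table as background only and checked on simulated data. The spread among 3 mice per group is the only error. Alternatives were another pseudocount, rescaling by the median ratio, other floors, leaving out each mouse, and the replicate number as a block. Shared windows are 50-base stretches of transcripts found also in another gene.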

Additional observations from a re-analysis of the deposited data

How the results depend on the processing

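Over all 205 genes limma called 0 at an adjusted p of 0.05 (22 had an unadjusted p under 0.05, 13 higher and 9 lower in SIRT2-KOhep mice), 1 without the mean-variance trend and 0 to 2 when a mouse was left out. With the replicate number as a block it called 0, with 17 at an unadjusted p under 0.05. The way the 205 genes were selected is not given. If this same contrast chose them, p-values and a correction over them cannot be taken at face value. Nothing is therefore read from these counts or their split. The deviations of same-numbered mice correlated at -0.19, 0.03 and 0.34, in order of replicate number. With 1 pair of mice per number, these correlations cannot show whether the numbers paired the mice, and nothing is read from them. The factors for rescaling came from the listed genes alone, and 148 of the 205 had a mean at least 2 times as high in SIRT2-KOhep mice. Rescaling can therefore also take away part of the genotype difference, and the log2 factor of SIRT2-KOhep mouse 2 was 1.19. When each library was rescaled by its median ratio to the others, the median difference of all listed genes went from 0.34 to 0.12 and the unadjusted split to 5 higher and 29 lower. With that scaling, 52 of the 54 genes still had a higher SIRT2-KOhep mean of log2(FPKM + 1), the selection rule took 49 genes, 8 of the 54 showed no overlap, mouse 2 was the highest SIRT2-KOhep mouse for 22, and the median difference was 0.39. Tifa then had a difference of -0.0895 and Pglyrp1 of -0.0889.

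A floor of 5 FPKM left 21 genes, 8 without overlap and 18 highest in mouse 2. No floor gave 129, 42 and 84. Leaving out 1 mouse gave 44 to 56 genes, a median difference of 0.58 to 1.12 and 23 to 34 without overlap. The difference then ranged from -0.17 to 0.84 for Pglyrp1, from -0.0043 to 0.98 for Tifa and from -0.00018 to 0.92 for Tspan8, each lowest without SIRT2-KOhep mouse 2. The causes were not tested. Because no counts are known, the precision of genes near 1 FPKM could not be set by depth.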
